A study of Arabidopsis thaliana with 3 samples.

Results

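The Aux/IAA genes described here are IAA18, IAA20, IAA29, IAA30, IAA31, IAA33 and IAA34 of Arabidopsis thaliana. They were chosen by gene family, with earlier results of these data known. A probe set was taken where the probe-to-gene table gave it a single symbol among these 7. Each gene had 1 such probe set, so that 7 of 22746 analysed probe sets are members. RefSeq lists 29 Aux/IAA genes, and the other 22 had no listed probe set and were not analysed here. The arrays were hybridised with RNA from whole Col-0 plants, the common laboratory accession, at growth stage 1.04 with 4 rosette leaves, raised for 14 days on plates of MS medium with 1.5% sucrose. The labels also list 48 hours of darkness and of cold at 4 °C and a photoperiod of 16 hours, alike for all samples. Plates received 1 mL of water (1 array) or 1 mL of 1 mM 2,4-D at pH 7.0 (2 arrays) for 1 hour. No transgene, mutation or other treatment is named for either group. The title of the series calls the 2,4-D level herbicidal, and no lower dose, later time or second water array was available for comparison. Nothing in the labels states that the treated RNA came from different plants. Every p-value below therefore measures only the spread between these arrays, which may be technical. The main fit averages this spread over probe sets of like signal.

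Aux/IAA proteins are short-lived repressors of auxin signalling. They bind auxin response factors (ARFs) and recruit TOPLESS corepressors, and so keep auxin-responsive genes silent. Auxin, or a synthetic auxin such as 2,4-D, joins an Aux/IAA protein to the F-box receptor TIR1 or a related AFB protein through a short degradation motif known as domain II, after which the repressor is ubiquitinated and destroyed by the proteasome. Many Aux/IAA genes are themselves induced by auxin, which forms a negative feedback loop. Within the family, IAA18 and IAA29 are known as canonical members with the degradation motif. IAA20, IAA30, IAA33 and IAA34 are known as non-canonical members without it, and IAA31 has a degenerate form of it and is placed with them here. This assignment is background knowledge and was not read from sequence in this work.

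Of the 7 genes, IAA30 was the only one with a signal at least 2-fold changed in the same direction on both 2,4-D arrays. Among the 3 genes bright enough for the main test, IAA30 was the only one called. It was bright enough only through its treated signals. Its signal was about 4 times that of the water array on each treated array. The canonical genes IAA18 and IAA29 gave clear signals on all 3 arrays and stayed within 1.5-fold of the water array. The non-canonical genes IAA20, IAA31, IAA33 and IAA34 were too dim for a test in the main fit, and lay at or near the level of bacterial control probe sets on most arrays.

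**Figure D1:**
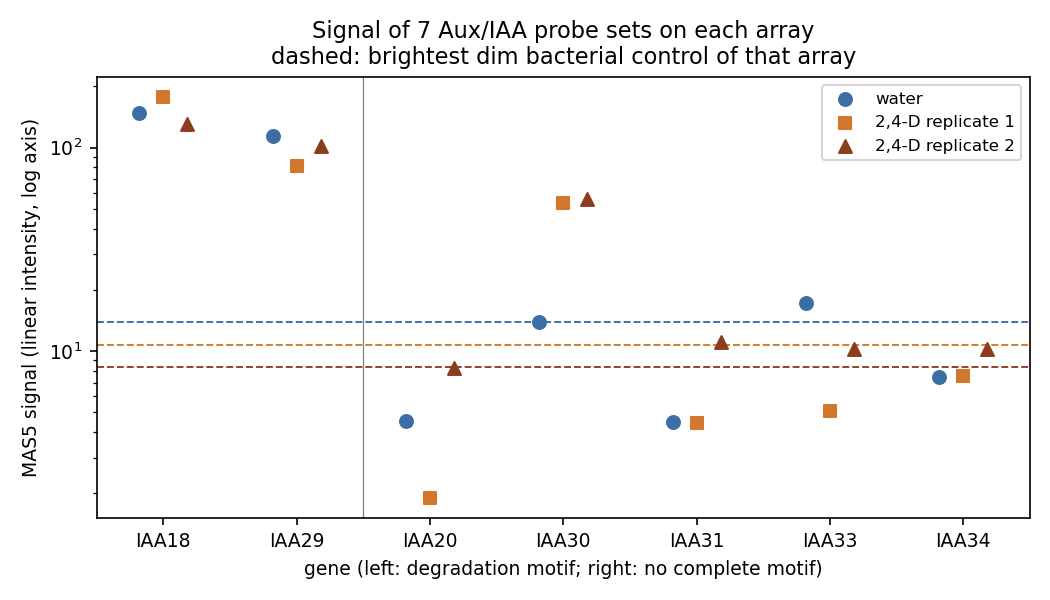
MAS5 signal (linear intensity on a log axis) of each Aux/IAA probe set on the water array (circles) and on the treated arrays (squares for 2,4-D replicate 1, triangles for replicate 2). Dashed lines in the same colours mark the brightest of 27 dim bacterial control probe sets on that array (13.9, 10.7 and 8.38). IAA18 and IAA29 lie far above the lines on every array, IAA30 lies at the water line and then far above the other lines, and the remaining genes lie around or under them.

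The signals are MAS5 values, in which the perfectly matching and mismatched probes for a transcript give a single intensity and each array is scaled. Signals of different probe sets depend on their probes and are not set against each other as levels of expression. To judge dim signals, 27 control probe sets for Bacillus transcripts were used, whose brightest member reached 13.9 with water, 10.7 in the first treated sample and 8.38 in the second. Among all probe sets, 26.6%, 26.4% and 22.9% lay at or below that value on these arrays. Changes were fitted with limma on log2 signals for the 13648 probe sets whose mean signal over the arrays was at least 24.8, the 40th percentile. IAA18, IAA29 and IAA30 passed this filter, and the other 4 members did not. The variance of the fit comes from the treated pair, and the single water array was assumed to vary in the same way. In the main fit this variance is pooled over probe sets of like signal, so a gene's own spread does not enter its SE or p-value. An exact permutation of the 3 arrays cannot give a p below 0.333 for any single gene.

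IAA18, whose stabilising mutations disturb lateral root formation and embryo patterning, gave 148 with water, then 178 on 2,4-D replicate 1 and 130 on replicate 2. The water array lay between the treated arrays. The log2 change was 0.27 on the first treated array and -0.18 on the second. The mean change was 0.04 ± 0.21 (SE of the fit, 2 arrays against 1). The limma adjusted p was 0.916, and the 95% interval of the log2 change ran from -0.38 to 0.46. In the ranking of signals within each array, IAA18 stood at percentile 79.9 with water and at 83.0 and 77.4 with 2,4-D.

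IAA29, a gene known to be raised by shade and warmth through phytochrome-interacting factors, gave a signal of 114 on the water array against 81.4 and 102 with 2,4-D. Both treated arrays were lower than water, by less than 1.5-fold each. The log2 change was -0.49 and -0.17 on the first and second treated array, with a mean of -0.33 ± 0.24 and a limma adjusted p of 0.362. The 95% interval from -0.80 to 0.15 holds no change as well as a fall. On all 3 arrays the signals of IAA18 and IAA29 were above all 27 bacterial controls.

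IAA30 (AT3G62100), which is known as a target of the embryo regulator LEC2 and whose overexpression disturbs root gravitropism, gave 13.9 with water, then 53.3 on 2,4-D replicate 1 and 55.7 on replicate 2. The treated arrays lay close together and well apart from water. The ratio to water was 3.82 on the first treated array and 4.00 on the second, and the treated arrays differed from each other by 1.05-fold. The fitted log2 change was 1.97 ± 0.39, or 3.91-fold, with a 95% interval from 1.20 to 2.74 and a limma adjusted p of 1.42e-05. This SE is that of probe sets of like mean signal, a mean that the treated arrays raise for IAA30. The single water value was dimmer, and dim signals varied more. The median absolute log2 difference between the treated arrays was 0.77 for probe sets under the filter and 0.20 for those that passed. The interval may therefore be too narrow and the p too small. Within each array the signal of IAA30 moved from percentile 26.6 of all probe sets with water to percentiles 57.0 and 58.3 with 2,4-D.

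The water signal of IAA30 was 13.95 against 13.86 for the brightest bacterial control of that array, so its level with water lay at the background of the array, and the fold change depends on that low value. On the treated arrays it was above all 27 controls, the brightest of which had 10.7 and 8.38. The probe set passed the filter through its treated signals, since 13.9 lies under the filter's 24.8. When all 22746 probe sets were fitted without a filter, IAA30 was still called higher (limma adjusted p = 0.00899), whereas with a filter at the 60th percentile it was not tested. Adding an offset of 16 to all signals lowered its log2 change to 1.24 (adjusted p = 4.09e-05).

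Among the tested members 1 of 3 was called higher and 0 of 3 lower, at an adjusted p under 0.05. Over all 13648 tested probe sets, 10.8% were called higher and 10.5% lower. The called member, IAA30, entered the tested set through its treated signals, so this count is a description and nothing is read from it. In the fit of all 22746 probe sets, 1 of the 7 members was called higher and 0 lower, against 4.24% higher and 3.12% lower over all. The count of 0 lower calls was also 0 at an unadjusted p under 0.05 in both fits. After the arrays were scaled to 1 median, 67.1% of all calls were higher instead of 50.7%, and the median log2 change of the tested probe sets moved from -0.04 to 0.07. The log2 change of IAA30 after that scaling was 2.08.

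**Figure D2:**
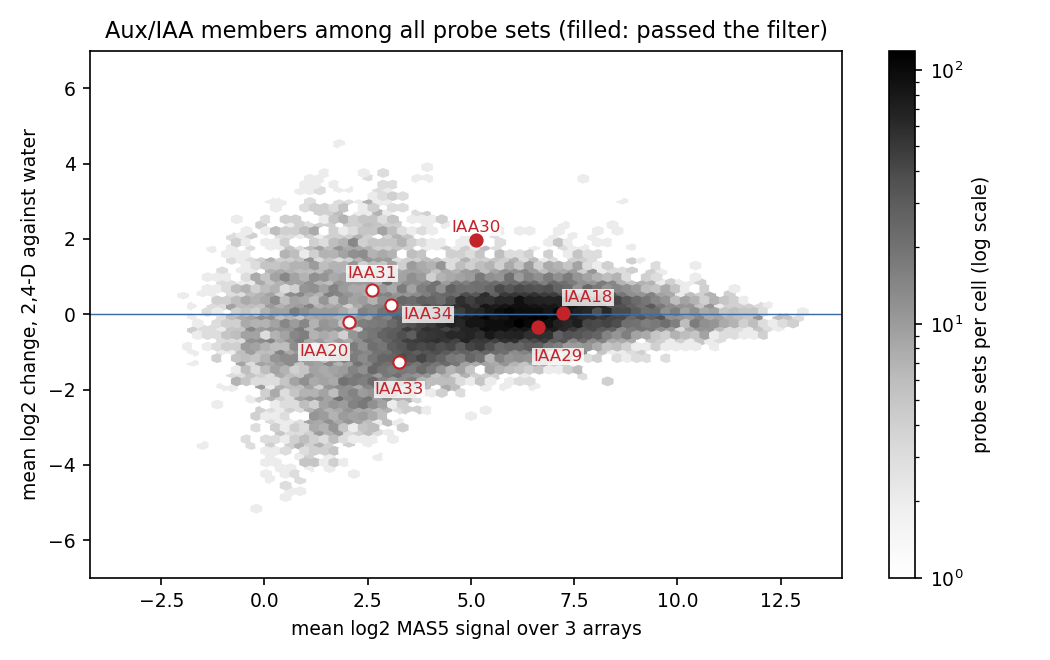
Mean log2 change with 2,4-D (vertical axis) against mean log2 MAS5 signal over the 3 arrays (horizontal axis) for all 22746 probe sets, shaded by their number per cell, with the Aux/IAA members in red. IAA30 lies above the main body of probe sets of like signal at a log2 change of 1.97, IAA18 and IAA29 lie within it, and the open circles of the 4 genes under the filter lie where changes of dim probe sets scatter widely.

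The other non-canonical genes were described by their signals, with the fit of all probe sets as the sole test. IAA20, a close relative of IAA30 and like it a gene of the vascular tissue, gave signals of 4.53 on the water array and of 1.90 and 8.21 on the treated arrays. It was at or below the brightest bacterial control on all 3 arrays, so no fold is given, and the water array lay between the treated arrays. The log2 change in the fit of all probe sets was -0.20 ± 1.31 (adjusted p = 0.947). Its 95% interval from -3.04 to 2.64 would hold a change as large as that of IAA30.

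IAA31, the third gene of the group formed with IAA20 and IAA30, gave 4.51 with water, then 4.44 on 2,4-D replicate 1 and 11.1 on replicate 2. Water and the first treated array were nearly equal, and the second treated array was the one above its brightest bacterial control, 8.38. The log2 change in the fit of all probe sets was 0.64 ± 1.11, with an adjusted p of 0.784 and a 95% interval from -1.77 to 3.04.

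IAA33, whose product competes with a canonical Aux/IAA protein for ARF partners in the root tip, gave signals of 17.2 on the water array and of 5.08 and 10.3 on the treated arrays. Both treated arrays were lower than water, the first of them below its brightest control and the second above it. The log2 change was -1.76 and -0.75 on the first and second treated array, and their mean of -1.25 ± 0.90 did not pass in the fit of all probe sets (adjusted p = 0.457, 95% interval from -3.22 to 0.71). Under the filter, the median log2 change over all 9098 probe sets was -0.45, so lower signals with 2,4-D were common among dim probe sets.

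IAA34, a protein stabilised through the transmembrane kinase TMK1 in the apical hook, gave signals of 7.42 on the water array and of 7.52 and 10.2 on the treated arrays. Both treated values were above water, the first of them barely. Only the second was above its brightest bacterial control. The log2 change in the fit of all probe sets was 0.24 ± 0.93, with an adjusted p of 0.909 and a 95% interval from -1.79 to 2.27.

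**Figure D3:**
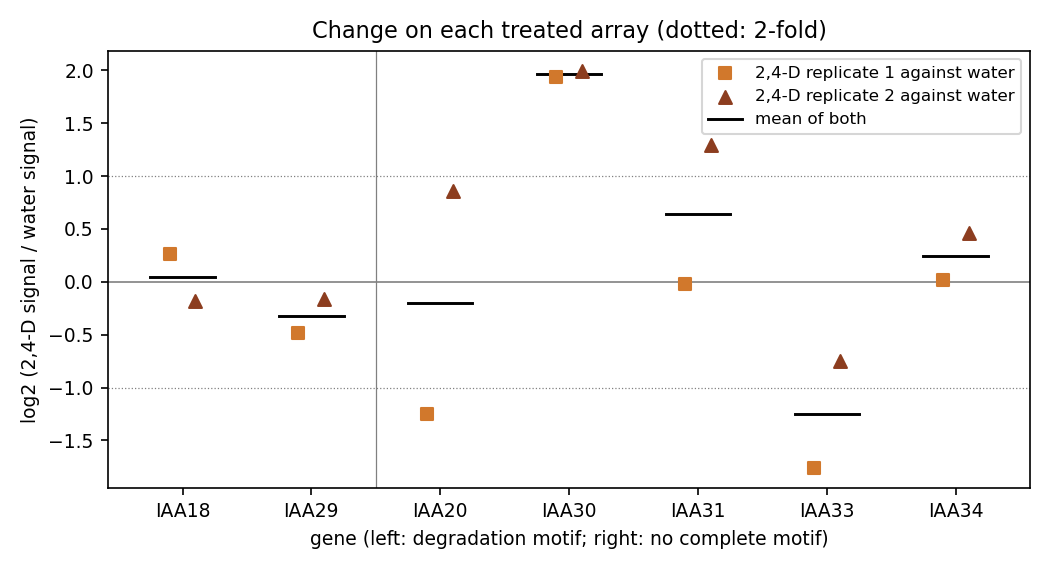
Log2 ratio of the 2,4-D signal to the water signal for each Aux/IAA gene, with squares for 2,4-D replicate 1 and triangles for replicate 2, the mean of both as a black bar and dotted lines at 2-fold. Both treated arrays lie together near 2 for IAA30, and lie on either side of 0 for IAA18, IAA20 and IAA31.

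By direction alone, 2 of the 7 members (IAA30 and IAA34) were above water on both treated arrays, 2 (IAA29 and IAA33) were below it on both, and for 3 (IAA18, IAA20 and IAA31) the water array lay between them. Over all 22746 probe sets, 32.5% were above water on both treated arrays and 46.3% below. By size, 1 member was at least 2-fold higher on both treated arrays and 0 were at least 2-fold lower. Over all probe sets these shares were 5.89% and 8.63%, and over the tested probe sets 3.8% and 3.14%. The spread between the treated arrays was wide for dim genes: the median absolute log2 difference between them was 0.77 for probe sets under the filter and 0.20 for those that passed. It was 2.11 for IAA20, 1.32 for IAA31, 1.01 for IAA33 and 0.44 for IAA34, against 0.06 for IAA30.

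The members with the degradation motif, IAA18 and IAA29, had a median log2 change of -0.14 (0.04 and -0.33). The 5 members without a complete motif had a median of 0.24, with single values from -1.25 for IAA33 to 1.97 for IAA30. Over all probe sets the median was -0.14. The median of the genes without the motif was -0.02 on the first treated array and 0.86 on the second, a gap wider than the difference between both classes. With 2 and 5 genes, of which 4 in the second class were dim, the classes were not tested against each other. Both genes with the motif were above all bacterial controls on every array, and of the genes without it IAA30 alone was. With water IAA30 was barely so, at 13.95 against 13.86 for the brightest control.

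**Figure D4:**
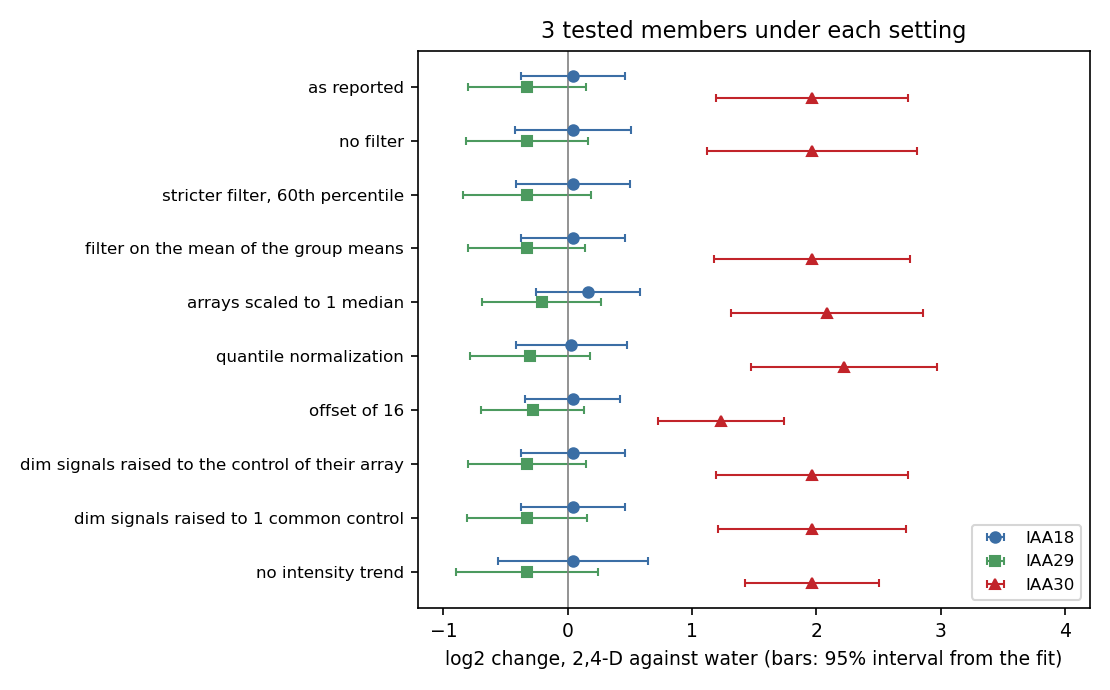
Log2 change with 2,4-D of the 3 tested Aux/IAA genes (circles IAA18, squares IAA29, triangles IAA30) under each way of processing the signals, with 95% intervals of the fit. Intervals of IAA18 and IAA29 include 0 in every setting shown, and those of IAA30 lie above 0 in each setting in which it was tested. With the filter at the 60th percentile IAA30 was not tested. In every other setting with a filter it was kept through its treated signals, and all settings use the same 3 arrays, so they are not separate support.

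Among the 13512 other probe sets with a single gene symbol, those nearest to IAA30 in log2 signal over the 3 arrays were AT5G58120 (14.0 with water, 52.5 and 56.4 with 2,4-D), AT1G05170 and AT2G40230, at Euclidean distances of 0.03, 0.12 and 0.12. Nearest to IAA18 were AT5G65000, AT1G07070 and AT3G54040, at distances of 0.10 to 0.12. For IAA29 they were AT5G09240, the expansin-like gene EXLB1 and AT3G21650, at 0.05 to 0.07. For the dim members they were AT1G04670, AT2G37800 and AT2G06840 (IAA20), AT1G16850, AT3G30660 and AT4G08020 (IAA31), AT3G49300, AT4G32105 and nad1 (IAA33), and AT2G27270, SAL2 and AT4G19370 (IAA34), at distances of 0.07 to 0.29. The distance compares the signals of different probes, so it is a likeness of numbers on these 3 arrays and not of expression levels.

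Other genes of auxin signalling, from lists of receptors and their ubiquitin ligase, response factors, corepressors, conjugating enzymes, transport, synthesis and early targets, were named on 18 probe sets. Of these 9 were tested, 2 rose and 0 fell, beside 10.8% called higher and 10.5% called lower over all tested probe sets. At an unadjusted p under 0.05, the count lower was 1 (CSN5B). The risers were GH3.3, an enzyme that joins auxin to amino acids, and HAT2, an auxin-induced homeodomain gene. Their log2 changes were 2.33 ± 0.19 (adjusted p = 1.91e-30) and 2.29 ± 0.21 (adjusted p = 4.72e-25), beside 1.97 ± 0.39 for IAA30. CSN5B, a subunit of the COP9 signalosome that regulates the SCF ligases, had signals of 63.5 with water and 22.0 and 52.2 with 2,4-D. Its log2 change of -0.91 ± 0.36 missed the threshold (adjusted p = 0.0509). The other tested genes were WES1 (0.28 ± 0.20) and GH3.17 (-0.20 ± 0.22), both GH3 enzymes, the protein kinase gene WAG2 (0.07 ± 0.49), the auxin synthesis gene YUC2 (-0.43 ± 0.39), the glucosyltransferase gene UGT74D1 (0.16 ± 0.23) and LBD16, a gene of lateral root initiation (-0.09 ± 0.42). The lists of ARFs, TOPLESS proteins, SAUR genes and the remaining Aux/IAA genes had 0 named probe sets. These genes were not analysed here, since 8730 probe sets were not listed in the naming table and 503 had several symbols.

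Whole plants were sampled, so fewer cells of a type and less RNA per cell cannot be told apart. The root-hair markers named on the array, EXPA7 and EXPA18 (2 of 3 in the list), summed to 80.8 with water and to 23.0 and 18.9 on the treated arrays. Neither passed the filter, so neither was tested in the main fit, and their results in the fit of all probe sets are not given here. EXPA18 was below the brightest bacterial control on both treated arrays (7.98 and 3.55). The leaf markers RCA, LHCB4.1 and LHCB4.2 (3 of 4) summed to 19970 with water and 13270 and 20420 with 2,4-D. The root gene PYK10, the only gene of its list and entered there under 2 symbols, had 2240 with water and 2985 and 2439 with 2,4-D. Lists for vascular tissue, guard cells and the shoot meristem had 0 named members. The part of tissue makeup in the signal of IAA30 was not tested.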

How the data were processed

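Each of the 3 RNA samples was hybridised to 1 Affymetrix ATH1 array. The authors deposited MAS5 intensities (linear scale), as the submitters' processing notes name this algorithm. Its version and target value were not given in the sources used here. The trimmed mean of each array, with 2% left out at each end, was 100.0. Median signals were 41.9 (water), 38.7 and 38.5 (2,4-D). Of 22810 probe sets, 22746 were not controls. Of these 13513 had 1 symbol, 503 had several and 8730 were not listed. Loci come from RefSeq (TAIR10.1), and no coordinates or sequences were used.

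Log2 signals were compared in limma 3.58.1 (R 4.3.3) by lmFit and eBayes with a variance trend over signal, and p-values were adjusted by Benjamini and Hochberg's method over all tested probe sets. The prior degrees of freedom came out infinite, so a gene's own spread had no weight in the main fit. Intervals are 95% intervals of the fit, and the number of arrays limits the precision. Genes were named by rule: all members, per pathway or tissue list those called and the 2 largest other changes among tested genes, and the 3 nearest profiles per member. Outside this rule, EXPA7, EXPA18 and RCA are named as the members of marker sums. YUC4, YUC6, YUC11, UGT84B1, GH3.1, GH3.9, LBD29, SHI and PUCHI are named after their values were seen. The members and lists were chosen with earlier results of these data known. One symbol shared with an unrelated kinase gene was dropped from the GH3 list after the data were seen. Alternatives were other filters, scalings, an offset, raised dim signals, no trend and leaving out a treated array.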

Additional observations from a re-analysis of the deposited data

How the results depend on the processing

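The call of IAA30 held in all 8 alternatives in which it was tested (log2 change 1.24 to 2.22, adjusted p from 3.15e-06 to 0.00899), and its change was 1.93 to 2.00 with 1 treated array left out. All of these but the fit without a filter kept IAA30 through its treated signals. Raising dim signals to a control could not alter it, since its 13.95 with water lies above 13.86. The count of 8 is therefore a description and not separate support for the call. IAA18 and IAA29 were not called in any of 9 tested alternatives. With a treated array left out IAA18 ranged from -0.18 to 0.27 and so changed sign, as did WAG2 (-0.44 to 0.58), LBD16 (-0.30 to 0.13) and LHCB4.1 (-0.58 to 0.082). LBD16 also turned to 0.030 with 1 median and 0.077 with quantile normalization. Calls over all probe sets were 964 higher and 710 lower without a filter, and 834 and 839 without the trend, against 1472 and 1434. Probe sets at least 2-fold higher and lower on both treated arrays, 519 and 429, were 1339 and 1964 without a filter, and 308 and 204 with an offset of 16. The lower count was 212 with the stricter filter and 271 with 1 median. With a treated array left out it was 706 to 768, as a single array then sufficed, and the higher count was 716 to 719. The median of the genes with the motif moved to -0.025 with 1 median. That of the genes without it became -0.40 when dim signals were raised to the control of their array, which sets the sign by the controls (13.9, 10.7 and 8.38). By that step IAA34 became -0.40 and IAA31 -0.35. With 1 common control, an alternative chosen after seeing the data, IAA33 was -0.31, and CSN5B was called lower (adjusted p = 0.0493). CSN5B was not called in any other setting with a test. Its log2 change was -0.28 without 2,4-D replicate 1 and -1.53 without replicate 2. Filter and trend alternatives leave the class medians as they are. No paired analysis was possible because water had 1 array.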

Other observations

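Among auxin synthesis genes too dim for the main test, the flavin monooxygenase genes YUC4 and YUC6 were picked out after their values were seen. YUC4 had a signal of 4.37 with water, below the brightest bacterial control of that array, and of 11.8 and 11.9 with 2,4-D, above the controls of those arrays. YUC6 had 30.0 with water and 15.8 and 3.91 with 2,4-D, the last below the brightest control. Neither change was tested in the main fit, and the results of the fit of all probe sets are not given for these genes. The other genes of that list under the filter, YUC11 and UGT84B1, were below the brightest control on every array. In the other auxin lists, GH3.1 (3.21 with water, 12.7 and 16.3 with 2,4-D) and LBD29 (5.71, then 14.1 and 12.5) also rose from below the brightest control to above it. GH3.9 was higher on both treated arrays (14.4, then 23.5 and 18.4). SHI (19.7, then 12.8 and 19.2) and PUCHI (26.0, then 17.35 and 13.7) were lower on both. These genes too were under the filter. Over all 22746 probe sets, 5.89% were at least 2-fold higher on both treated arrays and 8.63% at least 2-fold lower.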
